A study of Saccharomyces cerevisiae with 117 samples.

Results

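Genes for proteins L1 to L28 of the large ribosomal subunit and for its stalk were read at lower levels in single yeast cells under amino acid starvation (AAS), in hypotonic medium and under glucose starvation (GS) than in isotonic cells of the same sequencing batch. The set held 56 of the 6420 genes counted. They were chosen by systematic name, from RPL1A (YPL220W) to RPL28 (YGL103W), with RPP0 (YLR340W), RPP1A (YDL081C), RPP1B (YDL130W), RPP2A (YOL039W) and RPP2B (YDR382W), and the rule uses no measured value. Of the 56, 46 form 23 pairs of similar copies named A and B, 5 are single-copy genes (RPL3, RPL5, RPL10, RPL25 and RPL28) and 5 encode the stalk.

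The large subunit of the ribosome joins amino acids and releases the new chain through an exit tunnel, and its stalk binds the elongation factors. In budding yeast, ribosomal protein genes are among the most transcribed genes of a growing cell. Most are activated through Rap1 with Fhl1, Ifh1 and Sfp1, and nutrient signals that reach them through the TORC1 kinase and through protein kinase A turn them up or down together. Most of these genes were kept in pairs after an ancient whole-genome duplication.

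Each library came from 1 haploid MAT alpha cell of the laboratory strain S288C, grown from a single clone and stripped of its wall to a spheroplast. Of 117 cells, the 84 kept by the study were used. AAS cells (18 of 20) were held in S medium lacking amino acids and hypotonic cells (12 of 12) in S medium lacking sorbitol, and GS cells (21 of 47, all named Y5) in S medium lacking glucose. Isotonic cells were held in complete S medium with 1.0 M sorbitol (16 in batch 1 and 17 in batch 2), so AAS and hypotonic cells share their isotonic cells. The labels give an exposure of at least 30 min and up to 5 hours, the study's methods give a shorter upper limit, and no source used here gives the exposure of a single cell. No separate cultures were named, so each group counted as 1 sample: no p-value was made, the spread given is between cells, and intervals cover counting error only.

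In batch 1, AAS cells held between 3112955 and 8502504 reads on genes, hypotonic cells between 4297691 and 7870247 and isotonic cells between 3603505 and 55179414. In batch 2, GS cells held between 705807 and 2535593 and isotonic cells between 14245 and 1133518. The median share of reads on spike-in RNA was 40.5% in GS cells and 77.3% in isotonic cells of batch 2, and a median of 1332 genes per GS cell and 1047 per isotonic cell had a read, so levels in batch 2 were the less precise. In batch 1 the median spike-in share was 5.12% in AAS, 0.0391% in hypotonic and 0% in isotonic cells, and an average of 5004, 3428 and 3947 genes had a read, and their part in the differences was not tested. The isotonic cells of batch 1 stood apart by name: the 9 cells named A gave 5.44% of reads to the 56 genes on average and the 7 named E or G 4.13%. Of the hypotonic cells, 5 had fewer than 2500 genes with a read (1482 to 2487) and 7 had 2855 to 5650. Of the alpha cell markers, MF(ALPHA)1 had a mean of 665 CPM (reads of a gene scaled to 1000000 reads on genes) in AAS, 597 in hypotonic and 530 in isotonic cells of batch 1, and 2149 in GS and 1769 in isotonic cells of batch 2. STE3 had means of 577 CPM in AAS, 513.8 in hypotonic and 282.6 in isotonic cells of batch 1, but 1.10 in GS and 127.9 in isotonic cells of batch 2. MF(ALPHA)2, the other alpha cell marker, is described by its log2 ratio of mean CPM to isotonic cells, with 1 CPM added to each. It was -0.35 in AAS, -0.25 in hypotonic and 0.31 in GS cells. Of 5 a cell markers, none had a read in either group of batch 2, and the pheromone gene MFA1 was at or near 0 in batch 1. STE2, BAR1 and STE6 averaged 17.7, 11.98 and 20.0 CPM in AAS cells and 8.58, 0.0280 and 1.42 CPM in hypotonic cells, against 1.61, 0.736 and 0.115 CPM in isotonic cells. Among a cell markers read in 20% or more of the cells, the lowest log2 ratio was -0.63 for AAS and -1.12 for hypotonic cells. Both came from genes other than STE2, BAR1 and STE6. Whether the mating type genes bear on the values of the 56 genes was not tested.

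The copies are alike enough to bear on the counts, because only reads that aligned to 1 place were counted. Identity between the coding sequences of a pair ran from 78.9% (RPL22) to 99.4% (RPL1), with a median of 93.8%. For 36 of the 56 genes every window of 100 bases, the length of a read, was unique in the genome, and for 6 genes (both copies of RPL1, RPL4 and RPL11) fewer than 50% were. The stretches below show 3 pairs that the results return to: the most alike, the pair that diverged most under AAS, and the least alike. They are 60 bases of coding strand, read from the R64 genome of NCBI RefSeq, and capitals mark the bases that differ between the copies. RPL1A lies at chrXVI:135790-135849 (+), RPL1B at chrVII:254641-254700 (+), RPL15A at chrXII:201977-202036 (-), RPL15B at chrXIII:509735-509794 (-), RPL22A at chrXII:263691-263750 (+) and RPL22B at chrVI:64444-64503 (-), all in exons.
RPL1A: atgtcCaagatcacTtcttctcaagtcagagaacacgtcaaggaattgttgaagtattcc
RPL1B: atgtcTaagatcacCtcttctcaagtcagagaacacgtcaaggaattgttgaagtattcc
RPL15A: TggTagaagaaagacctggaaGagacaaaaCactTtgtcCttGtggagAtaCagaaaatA
RPL15B: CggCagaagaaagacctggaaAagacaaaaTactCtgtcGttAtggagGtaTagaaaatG
RPL22A: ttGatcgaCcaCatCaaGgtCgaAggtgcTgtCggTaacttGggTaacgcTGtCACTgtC
RPL22B: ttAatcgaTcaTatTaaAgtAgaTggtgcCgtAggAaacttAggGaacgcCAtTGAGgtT
The RPL1 stretch differs at 2 bases, that of RPL15 at 10 and that of RPL22 at 19. Each was picked as the 60-base stretch of its pair with the most differing bases, so it is not typical of the whole sequence. Over the whole coding sequence, 38.7% of 100-base windows were unique in RPL1, 96.7% in RPL15 and 100% in RPL22.

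The 500 bases before each start codon were searched on both strands for ACCCANACA or ATCCGNACA, 2 forms of the sequence bound by Rap1. A match lay before 30 of the 56 genes (53.6%), against 277 of 5980 protein-coding genes (4.63%), 29 of 56 small subunit genes (51.8%) and 0 of 21 genes for large subunit assembly factors. The letters GCGATGAG, found before many ribosome assembly genes, lay before 1 of the 56 (1.79%), before 10 of the 21 assembly genes (47.6%) and before 4.85% of protein-coding genes. The letters ATCANNNNNNNACG lay before 1 of the 56, RPL9B, and before 3.43% of protein-coding genes, and whether any factor binds them was not tested. None of the matches before the 56 genes overlapped a match of another of these motifs. A match is a description of the letters and not a site. The windows below are those of genes described in the results, the stalk genes with a match and RPL7, RPL9 and RPL15, on the coding strand with matches in capitals (a match on the other strand reads TGTNTGGGT or TGTNCGGAT).
RPP0, chrXII:805595-805663 (+): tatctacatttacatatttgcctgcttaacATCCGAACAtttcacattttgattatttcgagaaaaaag
RPP1B, chrIV:229602-229694 (+): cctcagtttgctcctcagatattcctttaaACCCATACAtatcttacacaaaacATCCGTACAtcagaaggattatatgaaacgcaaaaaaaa
RPP2A, chrXV:253950-254018 (+): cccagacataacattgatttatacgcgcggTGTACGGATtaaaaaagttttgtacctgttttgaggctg
RPL7A, chrVII:366209-366277 (-): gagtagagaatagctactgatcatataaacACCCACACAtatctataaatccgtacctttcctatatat
RPL7B, chrXVI:172904-172972 (+): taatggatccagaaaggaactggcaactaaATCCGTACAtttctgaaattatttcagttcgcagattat
RPL9A, chrVII:228601-228669 (-): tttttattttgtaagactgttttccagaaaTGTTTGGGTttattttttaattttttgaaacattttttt
RPL15A, chrXII:202785-202853 (-): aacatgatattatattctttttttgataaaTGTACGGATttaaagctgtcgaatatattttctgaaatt
RPP1A, RPP2B, RPL9B, RPL15B and both copies of RPL22 had no Rap1-like match in this window.

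The share of a cell's reads that fell on the 56 genes was the first measure compared, since it needs no choice among genes. In AAS cells it was lowest at 0.0792%, had a median of 0.276% and was highest at 1.94%, with a mean of 0.542 ± 0.527% (SD, n = 18 cells). In hypotonic cells it was lowest at 1.56%, had a median of 2.49% and was highest at 3.48%, with a mean of 2.48 ± 0.634% (SD, n = 12 cells). In isotonic cells of batch 1 it was lowest at 2.34%, had a median of 4.53% and was highest at 9.12%, with a mean of 4.87 ± 2.14% (SD, n = 16 cells). Every kept AAS cell thus lay below every kept isotonic cell, while the 2 AAS cells that the study left out had 2.46% and 2.76%, and hypotonic cells overlapped the lower isotonic cells. The difference of means was -4.33 percentage points for AAS and -2.39 for hypotonic cells. Against the isotonic cells named A it was -4.89 and -2.96, and against those named E or G -3.59 and -1.66.

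In batch 2 the share in GS cells was lowest at 0.368%, had a median of 1.38% and was highest at 4.68%, with a mean of 1.67 ± 1.22% (SD, n = 21 cells). In isotonic cells of batch 2 it was lowest at 0.999%, had a median of 3.41% and was highest at 8.66%, with a mean of 4.17 ± 2.16% (SD, n = 17 cells). The means differed by -2.50 points and the groups overlapped. The AAS cells were themselves split by name: the 5 with an X in the name had shares of 0.300 to 1.94% with a median of 1.17%, and the 13 without had 0.0792 to 0.870% with a median of 0.229%. The labels do not say what the X stands for. All 12 hypotonic cells carry it, against 2 of the 16 isotonic cells of batch 1, so there the name and the condition cannot be told apart.

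**Figure D1:**
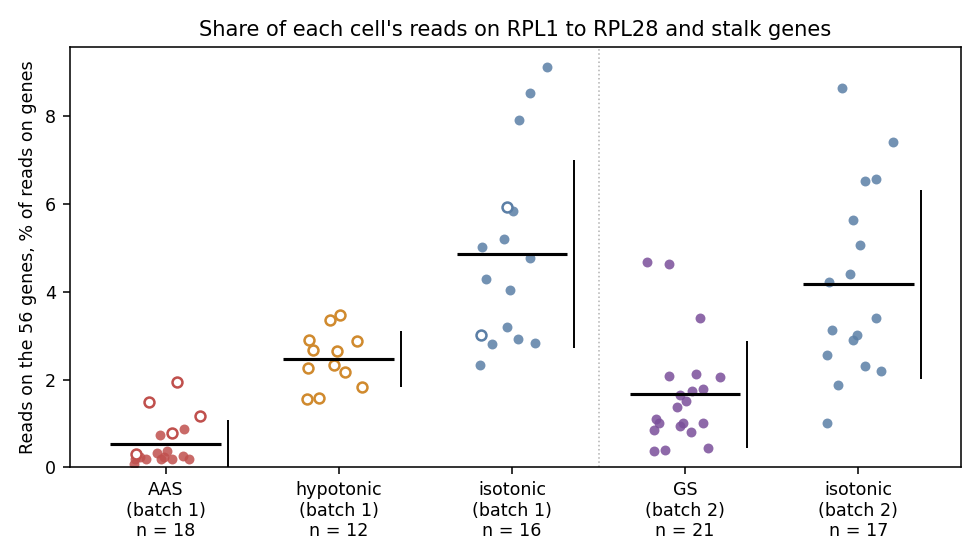
Share of each cell's reads on genes (y axis, percent) that fell on the 56 genes, by group and batch; each point is a cell, open circles are cells with an X in the name, the horizontal bar is the mean and the vertical line beside it spans the mean ± SD. The AAS cells reach 1.94% at most, below the lowest isotonic cell of batch 1 at 2.34%, and the GS and isotonic cells of batch 2 overlap.

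For single genes, the log2 fold change divides the mean CPM of treated cells by that of isotonic cells, after 1 CPM was added to each mean. It was computed for genes read in 20% or more of the cells of a comparison, and all 56 were among them in each comparison. At least 2-fold was the size that counted as lower or higher.

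Under AAS, 54 of the 56 genes were at least 2-fold lower and 0 at least 2-fold higher, where 13.8% of 5825 genes compared were that much lower and 43.2% that much higher. Their median log2 fold change was -3.33, that of all genes compared 0.74. The fall was of like size over the classes: the median was -3.06 for the stalk, -2.98 for the single-copy genes and -3.37 for the paired genes. The small subunit genes had -3.32, with 55 of 56 at least 2-fold lower, and the 25 other large subunit genes -3.15. Among AAS cells alone, the 5 with an X had a median of -2.32 and 52 genes lower against the same isotonic cells, and the 13 without -4.04 and 54 genes lower. The median of all genes compared was 0.33 for the first set and 0.76 for the second.

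The stalk genes fell together under AAS. RPP0, the protein that anchors the stalk to the ribosome, had 0 CPM in the lowest AAS cell, a median of 82.8 and 891 in the highest, against 179, 1780 and 5023 CPM in isotonic cells, with a log2 fold change of -3.32. All 18 AAS cells lay below the isotonic median and 12 below the lowest isotonic cell. RPP1A and RPP2B, whose proteins pair with each other, had medians of 30.1 and 15.6 CPM in AAS cells, against 378 and 323 CPM in isotonic cells, and log2 fold changes of -3.06 and -2.96. RPP1B and RPP2A, the other acidic pair, had medians of 17.4 and 12.8 CPM in AAS cells, against 181 and 140 CPM, and log2 fold changes of -3.05 and -3.33. The 5 stalk genes together took 0.0360 ± 0.0418% of reads in AAS cells and 0.339 ± 0.186% in isotonic cells of batch 1 (SD over 18 and 16 cells). In the isotonic cells named E or G that share was 0.204%, and in those named A 0.444%.

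**Figure D2:**
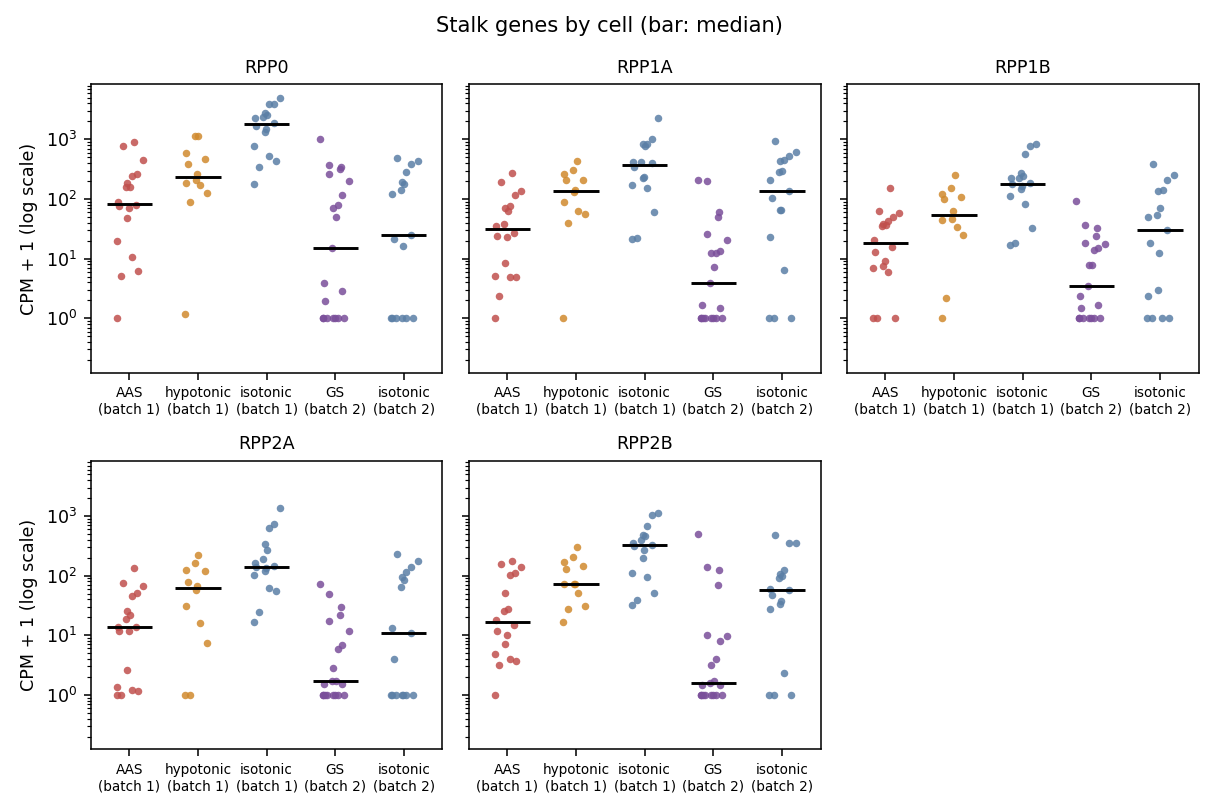
CPM + 1 of the 5 stalk genes in each cell (y axis, log scale), by group and batch; each point is a cell and the bar is the median. RPP0 is the stalk gene with the highest isotonic median of batch 1, 1780 CPM, and each stalk gene's AAS median lies below its isotonic median.

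Among single-copy genes, RPL3, which lies near the peptidyl transferase centre, had 0.191 CPM in the lowest AAS cell, a median of 227 and 3311 in the highest, against 3510, 4889 and 9373 CPM in isotonic cells, with a log2 fold change of -2.98. Every AAS cell lay below every isotonic cell, as was the case for 2 of the 56 genes, RPL3 and RPL9A, and for 3 of all 5825 genes compared (0.0515%). RPL5, which binds the 5S ribosomal RNA, had a median of 71.0 CPM in AAS cells (0 to 1198) and 3102 CPM in isotonic cells (998 to 9909), or -4.18 as a log2 fold change. RPL28 and RPL25, a protein beside the exit tunnel, had log2 fold changes of -3.37 and -2.91. RPL10, which joins the subunit late in the cytoplasm, changed least of these: it had 64.9 CPM in the lowest AAS cell, a median of 381 and 3261 in the highest, against 347, 1711 and 4168 CPM in isotonic cells, with a log2 fold change of -1.26. The ranges overlapped, and 17 of 18 AAS cells lay below the isotonic median. Its isotonic level also depended on the name, with a mean of 2421 CPM in cells named A and 864 in those named E or G. Against the second set its log2 fold change was -0.25, and that of the AAS cells with an X against all isotonic cells -0.26, so the 2-fold call was lost in both. Per 1000 bases of coding sequence, RPL3 had the highest mean CPM of the 56 genes in isotonic cells of batch 1 (4708), ahead of RPL5 (4142), and RPL10 the highest in AAS cells (1093).

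The 5 lowest log2 fold changes under AAS were -4.76 for RPL17B, -4.48 for RPL9A, -4.21 for RPL20B and -4.18 for each of RPL5 and RPL26B. RPL17 and RPL26 sit at the exit tunnel and RPL9 near the base of the stalk. RPL17B had 0 CPM in the lowest AAS cell, a median of 19.1 and 67.8 in the highest, against 15.0, 476 and 1965 CPM in isotonic cells. RPL9A had at most 172 CPM in AAS cells, with a median of 25.98, and at least 174 CPM in isotonic cells, with a median of 890. The 5 highest were -2.11 for RPL14B, -2.02 for RPL18B, -1.26 for RPL10, -0.61 for RPL22B and 0.94 for RPL15B, and none of these 5 has a Rap1-like match before it. Of the 5 lowest, RPL17B, RPL20B and RPL5 have no match either, and 26 of the 56 genes lack one.

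**Figure D3:**
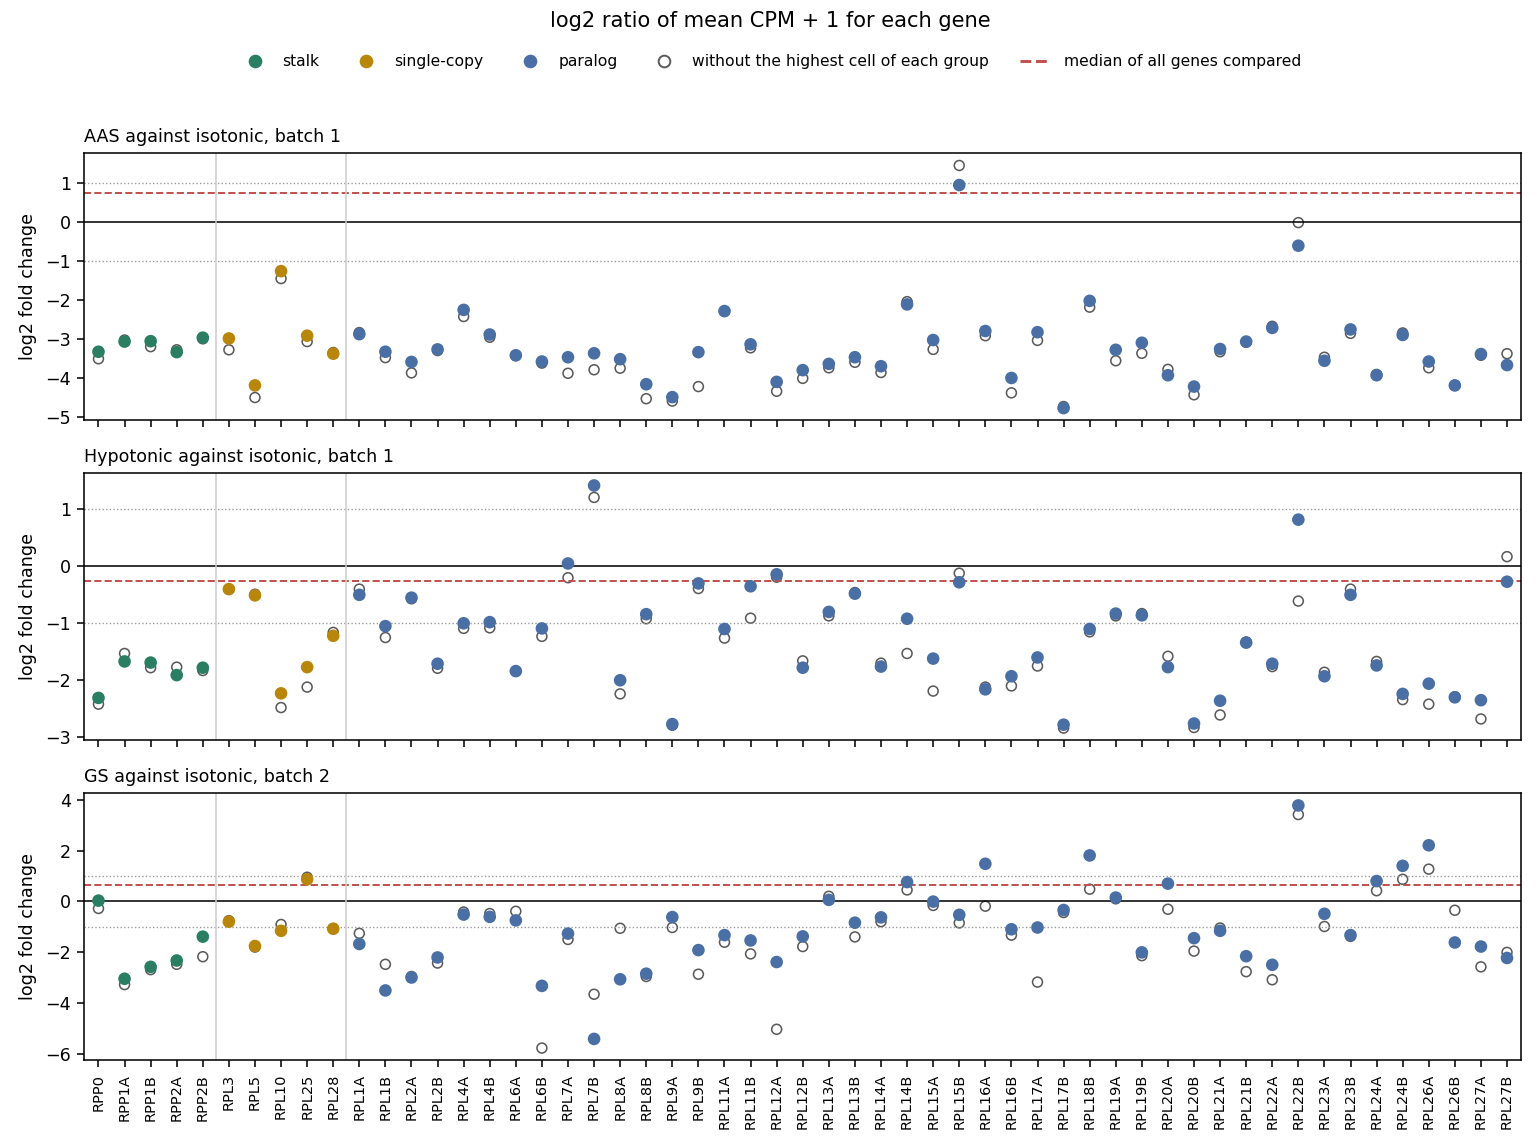
log2 fold change of the genes (y axis, 1 of the 56 is not shown) in the 3 comparisons, with stalk, single-copy and paired genes in colour from left to right; open circles leave out the highest cell in either group, the dashed red line is the median of all genes compared and dotted lines mark 2-fold. Under AAS every gene shown but RPL15B and RPL22B lies below -1, under hypotonic stress 34 genes do and under GS 32, with wider scatter under GS.

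The copies of RPL15, a core protein of the large subunit, diverged most under AAS. RPL15A had 34.4 CPM in the lowest AAS cell, a median of 120 and 962 in the highest, against 379, 1709 and 3332 CPM in isotonic cells, with a log2 fold change of -3.02. RPL15B had 1.03 CPM in the lowest AAS cell, a median of 118 and 265 in the highest, against 0.290, 17.2 and 399 CPM in isotonic cells. Its log2 fold change was 0.94, 1.44 with the top cell of both groups left out, and 2.71 by medians. Thus 2 of 18 AAS cells lay below the isotonic median of RPL15B and 18 of 18 below that of RPL15A. RPL15B was close to the median of all genes compared in each of these settings, which was 0.74, 1.24 and 2.63 in the same order. Scaled by DESeq2 size factors, which moved that median to 0.01, the value of RPL15B was 0.24. RPL15A made up 63.0% of the mean CPM of the pair in AAS cells and 96.4% in isotonic cells, and the medians over cells were 49.4% and 98.3%. Of the 100-base windows of this pair 96.7% were unique.

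In 11 of the 23 pairs the share of the A copy moved by 10 points or more under AAS, and in 8 by median CPM over cells. Pairs of other genes were not counted, here or in the other comparisons. After RPL15, the largest changes were in RPL17, where the A copy made up 72.8% in AAS cells and 40.3% in isotonic cells, and RPL14, with 31.7% in AAS cells and 58.4% in isotonic cells. Within a group the share varied widely between cells, for RPL17 from 0 to 100% in AAS and from 1.80 to 73.6% in isotonic cells. RPL23, counted as moved at -13.9 points, had a difference of 1.11 points by medians over cells. Both copies were at least 2-fold lower in 21 pairs and 1 copy in 2 pairs, RPL15 and RPL22. RPL22, the least alike pair, had a log2 fold change of -2.71 for RPL22A and -0.61 for RPL22B, but RPL22B had 0.71 against isotonic cells named A and -1.43 against those named E or G. As a class, A copies had a median of -3.46 and B copies -3.32.

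**Figure D4:**
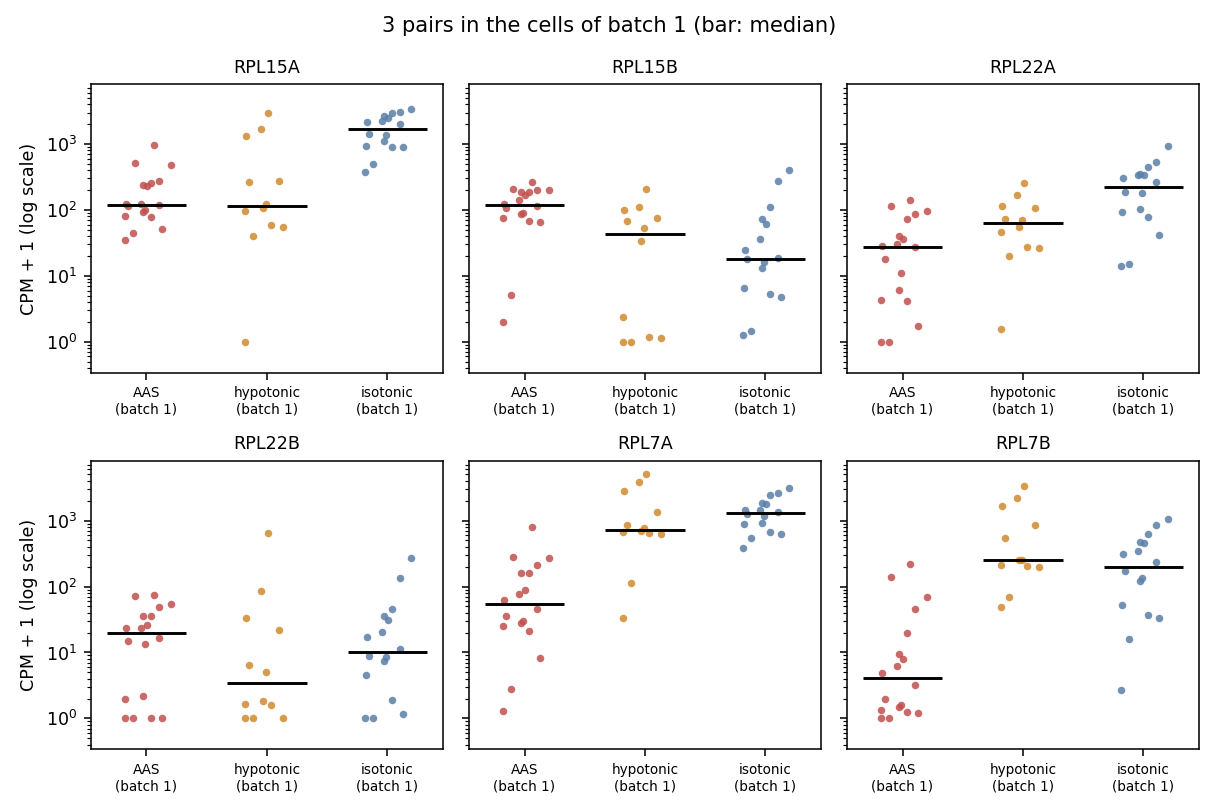
CPM + 1 of both copies of RPL15, RPL22 and RPL7 in each cell of batch 1 (y axis, log scale), by group; each point is a cell and the bar is the median. RPL15A lies lower in AAS cells (median 120 CPM) than in isotonic cells (1709 CPM), while RPL15B lies higher by median (118 and 17.2 CPM). By medians over cells the log2 fold change of RPL15B was 2.71 and the median of all genes compared was 2.63.

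Of 10 listed regulators of these genes, 6 were higher under AAS by at least 2-fold and 0 lower, and their median was 1.14 on the log2 scale, not far from the 43.2% and 0.74 of all genes compared. The largest were TOR1 (2.99) and KOG1 (2.51), parts of TORC1, with CRF1 (2.80), a corepressor of ribosomal protein genes, and FHL1 (2.17). KOG1 was near the limit of reading, with a mean of 4.92 CPM in AAS cells and 0.0368 CPM in isotonic cells. Of 21 large subunit assembly factors, 14 were at least 2-fold lower and 0 higher (median -1.67), led by RLP24 (-4.69), RRS1 (-4.17), RRB1 (-3.17), the chaperone of RPL3, and ALB1 (-2.65). Of 7 listed elongation factor genes, 6 were lower and 0 higher (median -1.94), among them EFB1 (-3.24), EFT2 (-2.49), YEF3 (-2.12) and TEF4 (-1.94). EFT1 and EFT2, and TEF1 and TEF2, encode the same proteins, so reads could be split or lost between them.

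In hypotonic cells the fall was smaller and unequal between copies. Of the 56 genes, 34 were at least 2-fold lower and 1 at least 2-fold higher, where 30.1% of 5600 genes compared were that much lower and 21.2% that much higher. The median log2 fold change was -1.47, that of all genes -0.26. The stalk had -1.78, the single-copy genes -1.22 and the paired genes -1.10, and the small subunit genes had -1.66 with 43 of 56 lower. Against the isotonic cells named A, 37 genes were lower with a median of -1.63, and against those named E or G 28 with -1.01. The median of all genes moved too, to -0.24 against the first set and 0.34 against the second. In cells of both groups with at least 2500 genes with a read, 34 were lower and 0 higher, with a median of -1.16, that of all genes -0.12.

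All 5 stalk genes were at least 2-fold lower in hypotonic cells. RPP0 had 0.167 CPM in the lowest hypotonic cell, a median of 236 and 1144 in the highest, against 179, 1780 and 5023 CPM in isotonic cells, with a log2 fold change of -2.31. All 12 hypotonic cells lay below the isotonic median and 4 below the lowest isotonic cell. RPP1A, RPP1B, RPP2A and RPP2B had log2 fold changes of -1.67, -1.69, -1.91 and -1.78. The stalk genes took 0.0816 ± 0.0639% of reads in hypotonic cells (SD, n = 12 cells), against the 0.339% given above for isotonic cells.

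The single-copy genes split in hypotonic cells. RPL10 had 6.52 CPM in the lowest hypotonic cell, a median of 285 and 1338 in the highest, against 347, 1711 and 4168 CPM in isotonic cells, with a log2 fold change of -2.23, the lowest of the 5. Against isotonic cells named E or G it was -1.22, and that of RPL25 -1.51, so the order turned. All 12 hypotonic cells lay below the isotonic median and 8 below the lowest isotonic cell. RPL25 (-1.77) and RPL28 (-1.22) were also at least 2-fold lower. RPL3 had 93.1 CPM in the lowest hypotonic cell, a median of 4196 and 6444 in the highest, against 3510, 4889 and 9373 CPM in isotonic cells, with a log2 fold change of -0.40. RPL5 had -0.51, and for both genes the groups overlapped.

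The lowest log2 fold changes in hypotonic cells were -2.78 for RPL17B, -2.77 for RPL9A, -2.76 for RPL20B, -2.36 for RPL21A and -2.35 for RPL27A. RPL9A had 0.288 CPM in the lowest hypotonic cell, a median of 118 and 348 in the highest, against 174, 890 and 2715 CPM in isotonic cells, and 9 of 12 hypotonic cells lay below the lowest isotonic cell. RPL9B had 4.18 to 1692 CPM in hypotonic cells and 34.5 to 2180 CPM in isotonic cells and a log2 fold change of -0.30. The A copy made up 21.96% of the pair in hypotonic cells and 61.0% in isotonic cells, the largest change of the 23 pairs. In the 7 hypotonic cells with at least 2500 genes with a read RPL9A averaged 194 CPM and RPL9B 461, against 976 and 646 CPM in the 13 isotonic cells of that kind, so this difference was also seen without the less covered cells.

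RPL27 changed in the same way: RPL27A had medians of 28.6 CPM in hypotonic cells and 303 CPM in isotonic cells, and RPL27B 176 and 171 CPM, so the A copy made up 18.01% in hypotonic and 48.5% in isotonic cells. RPL22 stood between these pairs in size, with an A share of 54.9% in hypotonic and 87.8% in isotonic cells, but it rested on 1 cell. That cell had 640 CPM of RPL22B, 81.2% of its sum over hypotonic cells. Without the highest cell of each group RPL22B had a log2 fold change of -0.61, against 0.82 with all cells, and the median share of RPL22A over cells was 96.6% in hypotonic and 95.7% in isotonic cells. In all, 13 pairs moved by 10 points or more, and A copies had a median log2 fold change of -1.71 and B copies -0.98.

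RPL7B was the gene counted as higher, with a log2 fold change of 1.42 (1.21 with the top cell of both groups left out). It had 48.2 CPM in the lowest hypotonic cell, a median of 254 and 3370 in the highest, against 1.72, 200 and 1067 CPM in isotonic cells, and 3 of 12 hypotonic cells lay above the highest isotonic cell. In the 5 hypotonic cells with fewer than 2500 genes with a read it averaged 1629 CPM, and in the other 7 cells 244 CPM. In cells of both groups with at least 2500 genes, its log2 fold change was -0.37. RPL7A, at 0.05 over all cells, averaged 2621 CPM in those 5 hypotonic cells and 622 in the other 7. The 5 highest log2 fold changes were those of RPL7B, RPL22B (0.82), RPL7A, RPL12A (-0.14), whose protein lies at the base of the stalk, and RPL27B (-0.27). Of the windows of the RPL7 pair 62.3% were unique, and an annotated non-coding RNA gene lies within each copy.

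**Figure D5:**
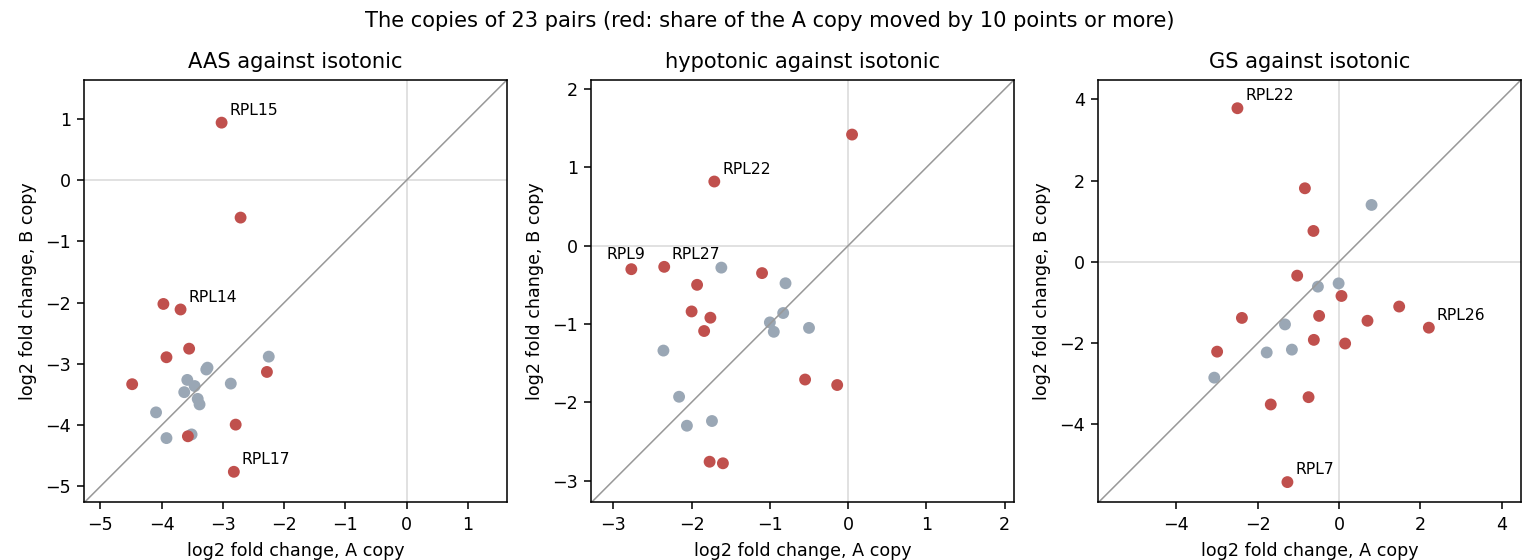
log2 fold change of the A copy (x axis) against that of the B copy (y axis) for the 23 pairs, in AAS, hypotonic and GS cells against isotonic cells; the diagonal marks equal change, red marks pairs whose A share moved by 10 points or more (11, 13 and 16 pairs), and the 3 largest are named. RPL15 stands off the diagonal under AAS and RPL22 under GS.

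In hypotonic cells the lists of other pathway genes held values on both sides. So did all genes compared, of which 30.1% were at least 2-fold lower and 21.2% at least 2-fold higher. Of the 10 regulators, 1 was at least 2-fold higher, KOG1 (6.03, and 2.31 with the top cell of both groups left out), and 1 lower, ABF1 (-1.84, and -0.54 without). Of the 21 assembly factors (median 0.30), 8 were lower, such as RRS1 (-3.87) and LOC1 (-2.89), and 8 higher, such as REI1 (5.08) and YVH1 (4.31), which acts when RPP0 joins the subunit. Their highest hypotonic cells held 5010 CPM of REI1 and 2060 CPM of YVH1, against medians of 6.86 and 18.96 CPM. Of the 7 elongation factor genes, 1 was lower, EFB1 (-1.06), and 0 were higher.

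Under GS, 32 of the 56 genes were at least 2-fold lower and 5 at least 2-fold higher, where 26.2% of 2106 genes compared were that much lower and 44.1% that much higher. The median log2 fold change was -1.16, that of all genes 0.64. By medians over cells, 47 of the 56 genes were at least 2-fold lower, against 19.4% of genes compared, and 0 were higher. The means rested on few cells. For 19 of the 56 genes the highest GS cell, taken gene by gene, held over 50% of the summed CPM, and for 9 the highest isotonic cell did. How often this was so over all genes compared was not counted. The small subunit genes compared had a median of -0.57 with 22 of 55 lower, and the other large subunit genes -0.67 with 9 of 23.

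Of the stalk genes, 4 were at least 2-fold lower under GS. RPP1A had 0 CPM in the lowest GS cell, a median of 2.83 and 203.5 in the highest, against 0, 137 and 941 CPM in isotonic cells of batch 2, a log2 fold change of -3.05. Thus 19 of 21 GS cells lay below the isotonic median. RPP1B (-2.58), RPP2A (-2.33) and RPP2B (-1.39) were also lower. RPP0 had 0 CPM in the lowest GS cell, a median of 13.9 and 1027 in the highest, against 0, 24.3 and 482 CPM in isotonic cells, and a log2 fold change of 0.03. A read of RPP0 was found in 14 of 21 GS cells and 11 of 17 isotonic cells. The stalk genes took 0.0229 ± 0.0277% of reads in GS cells and 0.0620 ± 0.0435% in isotonic cells of batch 2 (SD over 21 and 17 cells). With all 27 GS cells named Y5, 6 of which the study left out, the stalk median was -0.79.

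Of the single-copy genes, RPL5 (-1.76), RPL10 (-1.16) and RPL28 (-1.08) were at least 2-fold lower. RPL5 had medians of 8.71 CPM in GS cells and 2802 CPM in isotonic cells, so by medians its log2 fold change was -8.17. The calls of the other genes were close to the limit: RPL28 had -0.41 with all GS cells named Y5, and RPL10 had -0.91 without the highest cells, -0.34 with all mapped cells and 0.31 with GS cells named Y2. RPL28 was read in all 21 GS cells, with 0.712 CPM in the lowest, a median of 212.6 and 2166 in the highest, against 0, 641 and 4014 CPM in isotonic cells. Of the GS cells, 16 of 21 lay below the isotonic median. RPL3 had medians of 929 CPM in GS cells and 1123 CPM in isotonic cells and a log2 fold change of -0.80. RPL25 had 0.87, from a median of 0 CPM in both groups, with a read in 8 of 21 GS cells and 7 of 17 isotonic cells.

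The 5 lowest log2 fold changes under GS were -5.42 for RPL7B, -3.51 for RPL1B, -3.33 for RPL6B, -3.07 for RPL8A and -3.05 for RPP1A. That of RPL7B rested in part on 1 isotonic cell with 29296 CPM, 82.4% of its sum. Without the highest cell of each group it was -3.66, and that of RPL8A -1.06. RPL1B, of the mobile stalk at the exit site of tRNA, had a median of 36.1 CPM in GS cells (0 to 2975) and 1230 CPM in isotonic cells (0 to 56301), and 19 of 21 GS cells lay below the isotonic median. Of its isotonic sum 67.4% lay in 1 cell, and without the highest cell in either group its log2 fold change was -2.48. RPL6B was read in 4 of 21 GS cells and 11 of 17 isotonic cells. The copies of RPL1 share most of their sequence, as the stretch above shows, so the division of their reads is uncertain.

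The 5 highest were 3.78 for RPL22B, 2.21 for RPL26A, 1.81 for RPL18B, 1.48 for RPL16A and 1.40 for RPL24B, and none was higher by medians. RPL22B had a median of 0 CPM in both groups, and 1 GS cell with 4113 CPM held 85.7% of its sum. With the top cell of both groups left out, RPL16A had -0.19 and RPL18B had 0.48. By medians over cells, RPL26A had -2.02, RPL18B -1.83, RPL16A -1.23 and RPL24B -0.76. In 16 of 23 pairs the A share moved by 10 points or more, and in 10 by median CPM over cells. It was 9.83% in GS and 90.3% in isotonic cells for RPL22, 53.6% and 7.19% for RPL26, and 95.4% and 53.4% for RPL7, and the cells named above weigh in the first and the last. The median share over cells changed by -50, 62.05 and 7.05 points for these pairs. Some pairs changed sign: RPL20 moved by 35.5 points, but by -22.5 by medians over cells, and RPL14 by -23.8 and 25.6. A copies had a median of -0.75 and B copies -1.45.

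Few of the other pathway genes could be compared under GS. Of the 10 regulators 1 passed the reading limit, SFP1 (3.59), with a median of 0 CPM in both groups, and of the 21 assembly factors 1, TIF6 (0.30). All 7 elongation factor genes did, of which 2 were at least 2-fold lower, TEF4 (-5.80) and YEF3 (-2.89), and 0 higher. Over all genes compared, 26.2% were that much lower and 44.1% that much higher.

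Gene structure and promoter letters, which the choice of the genes did not use, were set beside the fold changes as a description. The 33 genes with an intron had median log2 fold changes of -3.38 under AAS, -1.60 in hypotonic cells and -1.08 under GS, and the 23 without -3.13, -1.10 and -1.38. The 30 genes with a Rap1-like match had -3.46, -1.66 and -1.30, and the 26 without -2.93, -1.10 and -0.98. In 12 pairs the match lay before 1 copy only, such as RPL9A and RPL15A in the windows above. That copy had the lower log2 fold change in 7 of the 12 pairs in each of the 3 comparisons, with a median difference from the other copy of -0.66, -0.29 and -0.45. The 36 genes with all windows unique had -3.39, -1.77 and -1.16, and the 6 with fewer than 50% unique windows -2.87, -0.99 and -1.43.

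The 56 genes also varied from cell to cell within a group. Over the 18 AAS cells the median Spearman correlation between pairs of the 56 genes was 0.57, beside 0.06 between all 5532 genes past a detection limit. The limit set a floor only, so those genes were not matched to the 56 in detection or level. Over the 12 hypotonic cells the median correlation was 0.34, beside 0.27. The AAS cells hold the sets with and without an X, which differ in their share, and over the 13 without it was 0.45, beside 0.02. Over the 16 isotonic cells of batch 1 it was 0.39, beside 0.21, and over the 9 named A 0.37, beside 0.15. In batch 2 it was 0.06 over 21 GS cells (41 of the 56 genes past the limit), beside 0.02. For the 17 isotonic cells (52 of the 56 genes) it was 0.19, beside 0.15. All the pairs of genes in a group share the same libraries, depth and total. In AAS cells the share of reads on the 56 genes had a correlation of -0.57 with the percent of reads that aligned to more than 1 place. That correlation was -0.42 in isotonic cells of batch 1, -0.03 in hypotonic cells, -0.43 in GS cells and -0.32 in isotonic cells of batch 2. Whether the percent of such reads bears on the co-variation was not tested.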

How the data were processed

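Read counts per gene were deposited for 117 single cells. According to the labels and the study's methods, the authors aligned 100-base paired reads with STAR 2.5.2 to R64 and made the deposited counts with HTSeq from uniquely aligned reads, without normalization. RSEM 1.2.31 is also named in the submitters' processing notes. Each file held 6420 genes, 92 spike-in entries and 5 entries for reads on no gene, and the reads of these 5 (0.257% to 72.9% per cell) and on spike-ins were left out. No cells had identical counts. Cells kept by the study's quality filter and its batches were taken from the study.

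Counts were divided by a cell's reads on genes to give CPM and averaged with equal weight per cell. The pseudocount was 1 CPM, and genes with a read in under 20% of the cells compared were left out. Cells are not replicates, so no test was run, and precision depends on depth, which was lower in batch 2. Named genes are all stalk and single-copy genes, per comparison the 5 lowest and 5 highest of the 56, the 3 pairs with the largest change of the A share (at least 100 summed reads per group) and up to 4 genes per list past 2-fold. The members are set by name, but they and the lists were chosen with earlier results of these data known. The alternatives were other pseudocounts, summed reads, TMM (edgeR 4.0.16) and DESeq2 1.42.0 scaling, mean logs, medians, thinning to 100000 reads, other cells, and leaving out cells. Of the 56 genes, 1 is not reported singly. Measures were tested on simulated data. Python 3.11.15, pandas 2.3.3, SciPy 1.17.1 and R 4.3.3 were used. The X in cell names and the split at 2500 genes with a read were looked at after the data were seen, the second as an added alternative.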

Additional observations from a re-analysis of the deposited data

Results flagged for a closer look

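A GS cell named Y2 that the study left out had 489 of its 4443 reads on the 56 genes, a share of 11.01% (exact Clopper-Pearson 95% interval 10.1 to 11.96%, counting error only). It lay outside the cells compared and above the highest isotonic cell of batch 2, at 8.66%. The cause was not tested.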

How the results depend on the processing

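No paired analysis was possible because the labels give no replicate numbers shared between groups and the results come from no test. Under each alternative run, the median of the 56 genes stayed below 0: from -4.26 to -2.32 under AAS, from -1.68 to -1.01 in hypotonic cells and from -4.25 to -0.90 under GS, where -4.25 came from median CPM. The count of genes at least 2-fold lower ran from 52 to 54, from 28 to 40 and from 26 to 47. Apart from genes lower by medians under GS, the share of all genes past 2-fold was not counted under the alternatives. Scaling moved the median of all genes, from 0.74 to 0.09 (TMM) and 0.01 (DESeq2 size factors) under AAS, from -0.26 to -0.08 and -0.01 in hypotonic cells and from 0.64 to 0.44 and 0.23 under GS.

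Under AAS, 1 gene counted as at least 2-fold higher, in place of 0, with summed reads, mean logs, medians, without the highest cells, with isotonic cells named A and with AAS cells lacking an X. The median log2 fold change of all genes compared was 0.89, 1.97, 2.63, 1.24, 0.80 and 0.76 in these settings, in that order. The difference in share, -4.33 points, was -5.19 with summed reads, -4.92 over reads on other genes, -4.89 and -3.59 with isotonic cells named A and with those named E or G, and -3.73 with AAS cells with an X. In hypotonic cells 2 genes were higher, in place of 1, with summed reads, TMM, DESeq2 size factors, all mapped cells and isotonic cells named A, and 0 in cells with at least 2500 genes with a read, where RPL7B had -0.37. The share difference, -2.39 points, was -3.33 with summed reads and -1.66 with isotonic cells named E or G.

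Under GS the genes at least 2-fold higher, 5 as reported, numbered 0 with mean logs and with medians, 2 without the highest cells and with cells named Y2, and 3 with all mapped cells. By median CPM the paired genes had -4.44 and 10 pairs had moved. With the cells named Y2 the paired genes had -2.46, the single-copy genes 0.16 and RPL10 0.31.

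The direction of single genes changed under GS. RPL16A had -0.15 with summed reads, -0.22 with TMM, -0.43 with DESeq2 size factors, -0.69 with mean logs, -1.23 by medians, -0.19 without the highest cells, -2.08 with cells named Y2 and -0.54 without the GS cell of the highest share. With mean logs, medians and cells named Y2, RPL18B had -0.49, -1.83 and -2.59, RPL24B -0.04, -0.76 and -1.92, and RPL26A -0.13, -2.02 and -0.09. RPL26B had 0.15 with summed reads, 0.09 with TMM, 0.00 when thinned, 0.09 with isotonic cells of at least 100000 reads and 0.60 without the isotonic cell of the highest share. For each of these the cause was not tested. Low depth per cell limits the comparisons of batch 2.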
